A study of Mus musculus with 9 samples.

Results

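The genes described here are 27 mouse genes of excision, crosslink and translesion DNA repair, chosen by their symbols among the 38926 gene rows of each count file, and all 27 passed the low-count filter, as 17348 genes did. Read counts came from whole lumbar dorsal root ganglia, the clusters of sensory nerve cell bodies beside the spinal cord, from the L3, L4 and L5 ganglia ipsilateral to the injected paw. The wild type C57BL/6 mice were male and 8 to 10 weeks old. Cisplatin was injected into the paw to a cumulative 40 µg in the first group, oxaliplatin to a cumulative 40 µg in the second, and the third received vehicle. Each group had 3 libraries, and each library pooled the ganglia of 4 animals, so p-values measure the spread between pools and not between animals. The time between the injections and the dissection is not given in the sources used here.

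Cisplatin and oxaliplatin are platinum drugs that bind to DNA bases and link them within a strand or between strands. Links within a strand are removed by nucleotide excision repair, in which the damage is recognised, the helix is opened, and the damaged stretch is cut out on both sides. Links between strands are handled by the Fanconi anaemia pathway together with nucleases, translesion polymerases, which copy past damaged bases, and homologous recombination. Base excision repair removes single oxidised or otherwise altered bases. Sensory neurons do not divide, so they have no replication forks at which the Fanconi and recombination steps are best known, and whole ganglia also hold glia, vessels and blood cells, some of which divide.

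Between 22819185 and 38808509 reads were counted to genes per library, and 3 reads in a library correspond to 0.0711 to 0.188 CPM, the reads of a gene scaled to a common library total. Levels are CPM after TMM scaling of the library totals. Vehicle replicate 2 stood apart: it had a TMM factor of 0.70 where the remaining 8 ranged from 0.96 to 1.10, and mitochondrial, small and structural RNAs took 30.6% of its gene reads where the remaining 8 ranged from 4.82 to 7.38%. Reads outside genes made up 16.6 to 19.1% of uniquely aligned reads in the drug libraries and 26.2 to 47.7% in the vehicle libraries, so this measure moves with treatment; its part in the results below was not tested. The summed CPM of 10 sensory neuron markers was 10070 to 11500 after cisplatin, 10610 to 11370 after oxaliplatin and 11120 to 11710 after vehicle, with 3 of the 10 called lower and none higher for each drug. That of 6 satellite glia genes was 824 to 877 after cisplatin, 752 to 810 after oxaliplatin and 877 to 924 after vehicle, with 3 of the 6 called lower for each drug and 1 called higher after cisplatin. That of 5 skeletal muscle genes was 6.43 to 23.2 after cisplatin, 5.96 to 45.6 after oxaliplatin and 6.01 to 18.9 after vehicle. Genes of 5 further cell types were called higher: the summed CPM of 8 neutrophil and precursor genes was 162 to 259 after cisplatin, 83.6 to 196 after oxaliplatin and 40.8 to 96.7 after vehicle, that of 6 erythroid genes 92.5 to 203, 82.2 to 200 and 37.3 to 49.6, and that of 7 macrophage genes 95.7 to 118, 103 to 114 and 61.7 to 85.3, in the same order of groups. Called higher after cisplatin were 8, 6 and 7 of these genes, and 5 of 6 endothelial and 6 of 6 myelinating Schwann cell genes. Called higher after oxaliplatin were 7 neutrophil, 6 erythroid, 6 macrophage, 6 endothelial and 2 Schwann cell genes. No tested gene of these 5 types was called lower or was at 0 in all libraries, and the part of the marker lists in the repair gene results was not tested. Over all genes tested, 15.8% were called higher and 22.9% lower after cisplatin, and 17.5% higher and 24.1% lower after oxaliplatin. The counts of called markers are to be read beside these shares. In whole tissue, fewer cells of a type and less RNA per cell cannot be told apart.

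After cisplatin, 5 of the 27 repair genes rose (Rad23b, Ercc1, Ogg1, Apex1, Fanci), 6 fell (Ddb1, Ercc6, Lig1, Rev3l, Fan1, Brca2) and 16 did not pass the test, relative to vehicle. After oxaliplatin, 7 rose (the same 5 with Xpa and Fancc), 5 fell (Ercc6, Lig1, Rev3l, Fan1, Brca2) and 15 did not pass. Genes were called at a Benjamini-Hochberg adjusted p under 0.05 in edgeR's quasi-likelihood test, adjusted over all genes tested. The called share was 40.7% of the repair genes for cisplatin, and 38.7% of all genes tested were called, 15.8% higher and 22.9% lower. For oxaliplatin it was 44.4% of the repair genes, against 41.6% of all genes, 17.5% higher and 24.1% lower. Both shares are near the background and say nothing particular about repair. The median log2 fold change of the repair genes was -0.03 for cisplatin and -0.02 for oxaliplatin, against 0.00 over all genes for each drug. The libraries of drug and vehicle did not overlap for 15 repair genes after cisplatin and for 15 after oxaliplatin, where 48.0% and 50.5% of all genes did not overlap. The 3 vehicle libraries serve both comparisons, so the 10 genes called for both drugs are not independent repeats. The split depends on the scaling: with library totals alone, which move the median gene by 0.29 for cisplatin and 0.30 for oxaliplatin, 9 repair genes were higher and 2 lower after cisplatin, and 10 were higher and 1 lower after oxaliplatin. Of all genes called, library totals alone put 86.7% higher after cisplatin and 86.6% higher after oxaliplatin, where TMM scaling put 40.9% and 42.1% higher.

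**Figure D1:**
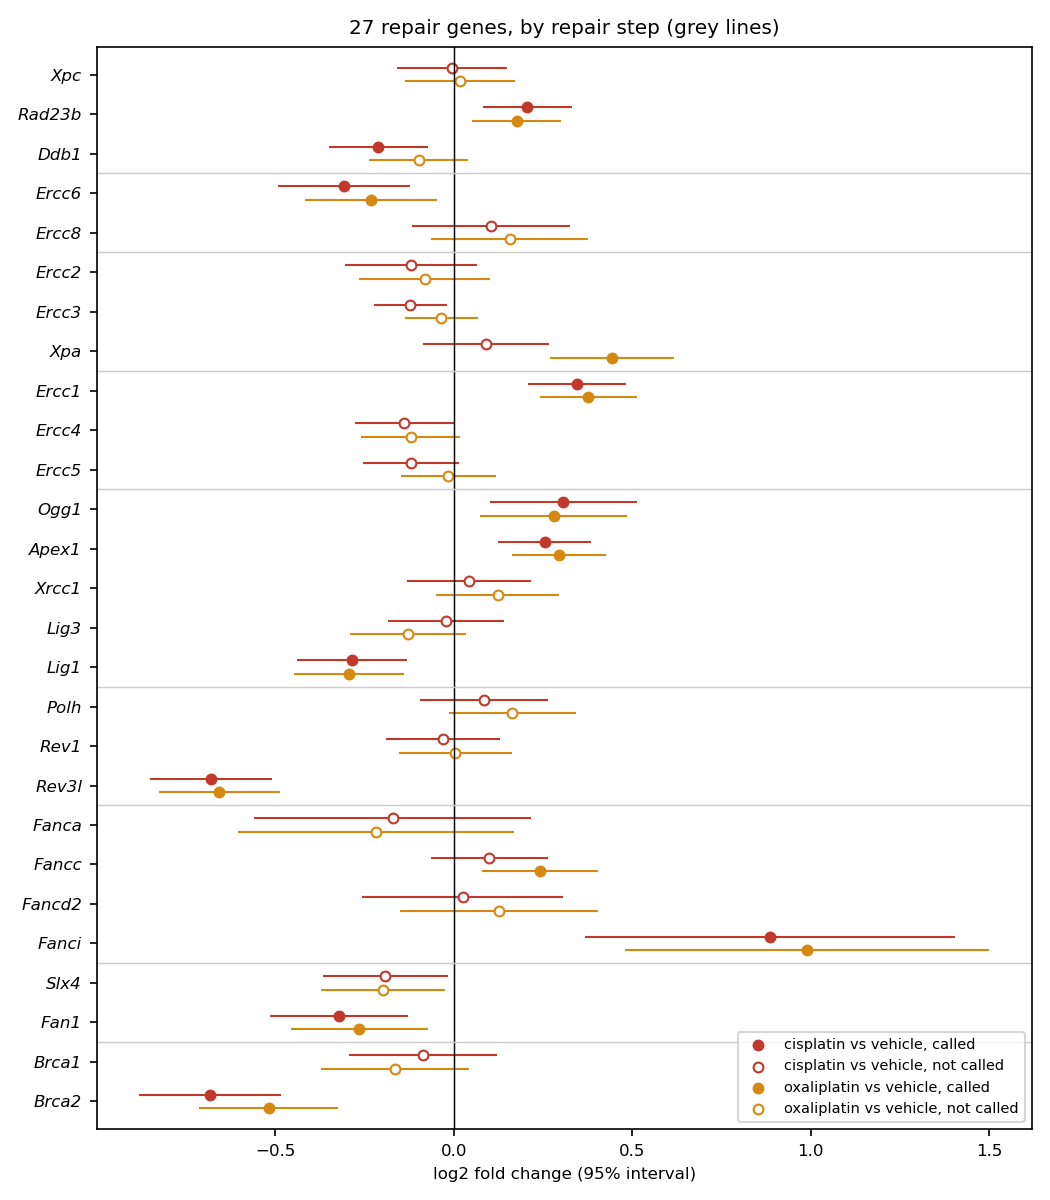
Log2 fold change with its 95% interval (horizontal axis) of each of the 27 repair genes for cisplatin over vehicle (red, upper) and oxaliplatin over vehicle (orange, lower); filled points passed the test and grey lines divide the repair steps. Fanci lies farthest right, at 0.89 for cisplatin and 0.99 for oxaliplatin, and Rev3l and Brca2 lie farthest left.

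Upstream DNA is shown for 5 called genes, so that genes that rose can be read beside genes that fell. These are the called genes with only 1 window, the 250 bases before a RefSeq start (GRCm38.p6), that overlaps no annotated exon. Lig1, with 3 windows, was left out by this rule. Windows were found for 23 of the 27 genes. Xpc, Ercc3, Rev3l and Fancd2 had none. Each runs 5′ to 3′ on the strand of its gene and ends just before the start. Capitals mark 6 short motifs searched on both strands: the GC box GGGCGG, the CCAAT box CCAAT, the cyclic AMP response element TGACGTCA, the NRF1 core GCGCATGC, the ETS core CCGGAA and the E2F motif TTTCGCGC. No pair of these motifs overlaps in the 5 sequences.
Rad23b (rose after both drugs; chr4:55349792-55350041, plus strand): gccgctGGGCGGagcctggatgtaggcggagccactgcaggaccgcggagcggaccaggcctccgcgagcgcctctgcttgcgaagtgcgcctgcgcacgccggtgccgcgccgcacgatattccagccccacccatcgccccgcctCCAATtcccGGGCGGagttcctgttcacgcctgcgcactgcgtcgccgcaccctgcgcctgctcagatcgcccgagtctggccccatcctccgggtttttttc
Xpa (rose after oxaliplatin; chr4:46196312-46196561, minus strand): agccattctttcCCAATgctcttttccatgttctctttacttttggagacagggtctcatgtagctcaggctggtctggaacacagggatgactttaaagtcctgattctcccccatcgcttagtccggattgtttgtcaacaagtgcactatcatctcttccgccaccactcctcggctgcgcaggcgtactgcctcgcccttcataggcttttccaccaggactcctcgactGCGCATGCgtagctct
Fancc (rose after oxaliplatin; chr13:63431746-63431995, minus strand): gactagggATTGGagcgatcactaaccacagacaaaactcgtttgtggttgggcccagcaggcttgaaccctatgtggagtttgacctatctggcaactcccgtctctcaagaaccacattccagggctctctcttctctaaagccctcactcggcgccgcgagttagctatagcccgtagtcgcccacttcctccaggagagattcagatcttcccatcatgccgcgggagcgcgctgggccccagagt
Ercc6 (fell after both drugs; chr14:32513271-32513520, plus strand): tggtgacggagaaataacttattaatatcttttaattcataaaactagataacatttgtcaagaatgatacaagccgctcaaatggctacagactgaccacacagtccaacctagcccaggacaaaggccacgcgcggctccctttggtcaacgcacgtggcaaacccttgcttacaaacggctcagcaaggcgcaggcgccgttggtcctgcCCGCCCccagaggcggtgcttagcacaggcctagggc
Brca2 (fell after both drugs; chr5:150522371-150522620, plus strand): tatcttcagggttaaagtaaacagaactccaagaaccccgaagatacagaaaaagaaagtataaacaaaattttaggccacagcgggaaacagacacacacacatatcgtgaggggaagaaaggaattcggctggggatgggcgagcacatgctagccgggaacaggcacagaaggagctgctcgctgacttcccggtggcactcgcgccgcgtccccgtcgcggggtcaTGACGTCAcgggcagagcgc
Rad23b holds 2 GC boxes, which begin at -244 and -94 counted from -1 at the base before the start, and a CCAAT box, and 70.8% of its window is G or C. Brca2 holds the cyclic AMP response element, beginning at -20, in a window of 54.4% G or C. The Fancc window lies inside the annotated span of the gene, before an internal start. Over all 32851 windows of the table, 32.7% hold the GC box, 33.9% the CCAAT box, 1.55% the response element, 2.26% the NRF1 core, 12.03% the ETS core and 0.256% the E2F motif. Over the 25 windows of repair genes (Lig1 has 3) the GC box is in 13, the CCAAT box in 13, the response element in 1, the NRF1 core in 4, the ETS core in 5 and the E2F motif in 0. Repair gene windows had a median of 55.6% G or C, against 52.4% over all windows. Counted by gene, the GC box is in a window of all 5 genes that rose after both drugs. It is in a window of 2 of the 4 genes that fell after both and have a window, Ercc6 and Lig1, and Lig1 has 3 windows. The difference was not tested. A match describes the letters only.

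Damage recognition across the genome is done by XPC with RAD23B, and DDB1 is part of the complex that presents ultraviolet and other lesions to it. Rad23b (chr4:55350043-55392237) rose by a small amount after both drugs. It had 181, 196 and 203 CPM after cisplatin, 195, 187 and 187 CPM after oxaliplatin, and 160, 167 and 177 CPM after vehicle. All 6 drug libraries lay above all 3 vehicle libraries. The log2 fold change was 0.21 ± 0.06 (SE) for cisplatin, edgeR adjusted p = 0.014, and 0.18 ± 0.06 for oxaliplatin, edgeR adjusted p = 0.028. The cisplatin call was lost without cisplatin replicate 2 (0.20, adjusted p = 0.053), and the oxaliplatin call without vehicle replicate 1 (0.17, adjusted p = 0.070), oxaliplatin replicate 2 (0.19, adjusted p = 0.051) or oxaliplatin replicate 3 (0.19, adjusted p = 0.060). Its partner Xpc had 17.2, 17.4 and 16.3 CPM after cisplatin, 16.6, 17.9 and 17.3 CPM after oxaliplatin, and 15.8, 16.98 and 18.3 CPM after vehicle, with overlap throughout, and passed neither test. Ddb1 (chr19:10605327-10629819), the most abundant of the 27 per kilobase, had 308, 317 and 337 CPM after cisplatin, 371, 330 and 339 CPM after oxaliplatin and 382, 374 and 357 CPM after vehicle. The cisplatin libraries lay below the vehicle libraries, whereas an oxaliplatin library lay among them. Ddb1 fell after cisplatin (log2 fold change -0.21 ± 0.06, edgeR adjusted p = 0.021), a direction that turns to 0.084 when library totals alone are used. The Ddb1 call was lost with no low-count filter (-0.17, adjusted p = 0.097), with the trend of fold change with exon length and GC content removed (-0.16, adjusted p = 0.055), and without vehicle replicate 1 (-0.17, adjusted p = 0.10), cisplatin replicate 1 (-0.18, adjusted p = 0.080) or cisplatin replicate 2 (-0.20, adjusted p = 0.077). After oxaliplatin its log2 fold change of -0.10 ± 0.06 did not pass (edgeR adjusted p = 0.24). Ddb1 shares 5.12% of its exon bases with Dak on the other strand, which averaged 6.89 CPM after vehicle and fell by 0.30 after each drug.

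Damage that stalls RNA polymerase is recognised by CSB and CSA, the products of Ercc6 and Ercc8. Ercc6 (chr14:32513521-32580990) had 21.3, 20.6 and 19.99 CPM after cisplatin, 22.7, 19.9 and 22.6 CPM after oxaliplatin, and 26.1, 22.1 and 27.8 CPM after vehicle. The cisplatin libraries lay below all vehicle libraries, and the oxaliplatin libraries overlapped vehicle replicate 2. Ercc6 fell by 0.31 on the log2 scale after cisplatin (SE 0.09, edgeR adjusted p = 0.014) and by 0.23 after oxaliplatin (SE 0.08, edgeR adjusted p = 0.045), but turned to 0.058 and 0.11 once the trend of fold change with exon length and GC content was removed, and with library totals alone was at -0.023 for cisplatin, with no call (adjusted p = 0.91), and at 0.061 for oxaliplatin. Ercc6 kept its oxaliplatin call in 4 of 21 alternatives, and the settings that ended it include the removal of any library except vehicle replicate 2 (-0.26 to -0.16). The settings that kept it include a looser adjusted p threshold of 0.1, at which no call can be lost. Its cisplatin call was lost without vehicle replicate 1 (-0.27, adjusted p = 0.072), vehicle replicate 3 (-0.23, adjusted p = 0.065) or cisplatin replicate 3 (-0.26, adjusted p = 0.058). Ercc8 had 10.1, 7.84 and 8.43 CPM after cisplatin, 8.87, 8.74 and 9.64 CPM after oxaliplatin, and 7.72, 8.27 and 8.45 CPM after vehicle, and passed neither test.

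Helix opening and damage verification use the TFIIH helicases XPD and XPB, the products of Ercc2 and Ercc3, and the scaffold protein XPA. Xpa (chr4:46155347-46196311) was the member on which the drugs came out farthest apart. It had 11.0, 10.6 and 10.6 CPM after oxaliplatin and 8.14, 8.21 and 7.38 CPM after vehicle, so no libraries overlapped, and it rose after oxaliplatin (log2 fold change 0.44 ± 0.08, edgeR adjusted p = 0.00099). It had 8.43, 8.85 and 7.87 CPM after cisplatin, which overlapped the vehicle libraries, and did not pass there (0.09 ± 0.08, edgeR adjusted p = 0.40). Xpa shares 4.07% of its exon bases with Ncbp1 on the other strand, a gene that fell after both drugs. Ercc2 had 16.7, 20.1 and 18.6 CPM after cisplatin, 19.4, 17.1 and 20.4 CPM after oxaliplatin, and 20.2, 19.4 and 20.5 CPM after vehicle. Ercc3 averaged 45.3 ± 1.48 CPM after cisplatin, 48.1 ± 0.808 after oxaliplatin and 49.2 ± 0.774 after vehicle (SD, n = 3 each, as for every mean below), and neither gene passed a test. Ercc2 shares 24.6% of its exon bases with the antisense gene Gm26852 and 17.8% with Klc3, both on the other strand.

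The cuts on both sides of the damage are made by the nuclease pair ERCC1 and XPF, encoded by Ercc1 and Ercc4, and by XPG, encoded by Ercc5. Ercc1 (chr7:19344778-19356524) rose after both drugs. It had 18.1, 18.2 and 18.8 CPM after cisplatin, 18.2, 19.5 and 18.6 CPM after oxaliplatin, and 14.4, 13.8 and 15.0 CPM after vehicle. Every drug library lay above every vehicle library. The log2 fold change was 0.35 ± 0.06 for cisplatin, edgeR adjusted p = 0.0012, and 0.38 ± 0.06 for oxaliplatin, edgeR adjusted p = 0.00061, and Ercc1 was called in all 21 alternatives for both drugs. Ercc1 shares 3.41% of its exon bases with Cd3eap. Ercc4, whose protein acts only joined to ERCC1, had 19.0, 19.1 and 20.3 CPM after cisplatin, 20.5, 19.5 and 19.1 CPM after oxaliplatin and 20.9, 20.6 and 22.6 CPM after vehicle. The Ercc4 libraries lay below vehicle for both drugs, but the log2 fold changes of -0.14 ± 0.06 and -0.12 ± 0.06 did not pass. Ercc5 averaged 29.0 ± 2.10 CPM after cisplatin, 31.2 ± 0.879 after oxaliplatin and 31.5 ± 0.0757 after vehicle and passed neither test.

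Base excision and ligation begin with a glycosylase, here OGG1 for oxidised guanine, go on with APEX1, which cuts the strand at the empty site, and end with the scaffold XRCC1 and the ligases LIG3 and LIG1. Ogg1 (chr6:113326972-113335068) had 6.39, 7.16 and 6.01 CPM after cisplatin, 6.44, 6.25 and 6.53 CPM after oxaliplatin, and 5.21, 5.01 and 5.53 CPM after vehicle. It rose after both drugs, by 0.31 ± 0.09 for cisplatin (edgeR adjusted p = 0.023) and 0.28 ± 0.09 for oxaliplatin (edgeR adjusted p = 0.033), on the log2 scale. It lost the call for both when the length and GC trend was removed, at 0.15 and 0.11. The Ogg1 cisplatin call was also lost without vehicle replicate 1 (0.32, adjusted p = 0.056) or cisplatin replicate 2 (0.23, adjusted p = 0.11), and the oxaliplatin call without vehicle replicate 1 or 2 or oxaliplatin replicate 2 or 3 (0.27 to 0.30, adjusted p 0.055 to 0.089), with DESeq2, and with a replicate block (0.28). Ogg1 shares 10.6% of its exon bases with Camk1, which rose too (0.27 and 0.28). Apex1 (chr14:50924968-50927139) had 29.9, 27.96 and 27.94 CPM after cisplatin, 28.5, 30.7 and 29.1 CPM after oxaliplatin, and 22.9, 24.9 and 24.2 CPM after vehicle. No drug library overlapped a vehicle library. It rose by 0.25 ± 0.06 (edgeR adjusted p = 0.0059) after cisplatin and 0.30 ± 0.06 (edgeR adjusted p = 0.0022) after oxaliplatin. Once the length and GC trend was removed, Apex1 was at 0.0020 and 0.044, with no call. Apex1 shares 61.7% of its exon bases with Tmem55b on the other strand, which fell by 0.15 and 0.13, and the strand setting of the counting is not given, so whether Apex1 reads were kept apart from those of Tmem55b over that stretch is unknown. Reads recorded as ambiguous between genes were 0.11 to 0.35% of recorded reads across the libraries. What this share says about the strand setting was not tested.

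Lig1 (chr7:13277283-13311433), which joins DNA ends after replication and excision, had 12.1, 13.1 and 11.6 CPM after cisplatin, 12.6, 12.1 and 11.9 CPM after oxaliplatin, and 15.2, 14.2 and 15.3 CPM after vehicle. All drug libraries lay below all vehicle libraries. Lig1 fell by 0.28 ± 0.07 after cisplatin (edgeR adjusted p = 0.0078) and by 0.29 ± 0.07 after oxaliplatin (edgeR adjusted p = 0.0059), a change that library totals alone bring to 0.0043 and 0.0044. Lig1 shares 5.79% of its exon bases with 6330408A02Rik on the other strand, which was at -0.08 after cisplatin and -0.14 after oxaliplatin without passing. Xrcc1 averaged 12.4 ± 0.844 CPM after cisplatin, 13.1 ± 0.272 after oxaliplatin and 12.1 ± 0.982 after vehicle. Lig3 averaged 26.7 ± 0.976 CPM after cisplatin, 24.9 ± 2.08 after oxaliplatin and 27.1 ± 1.89 after vehicle. Neither passed a test. Lig3 shares 25.1% of its exon bases with Rffl on the other strand, which was at -0.04 after cisplatin and -0.10 after oxaliplatin without passing, and its values are uncertain for the same reason as those of Apex1.

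Translesion synthesis is carried out by the polymerase eta gene Polh, by Rev1, which recruits other polymerases, and by Rev3l, the catalytic subunit of polymerase zeta. Of these 3 genes, only Rev3l (chr10:39732118-39875211) was called, lower after both drugs. It had 47.1, 47.2 and 52.8 CPM after cisplatin, 53.0, 46.2 and 50.4 CPM after oxaliplatin, and 87.3, 72.0 and 75.8 CPM after vehicle. The vehicle libraries were all above the drug libraries, with vehicle replicate 1 highest. Rev3l fell by 0.68 ± 0.08 after cisplatin (edgeR adjusted p = 7.23e-05) and by 0.66 ± 0.08 after oxaliplatin (edgeR adjusted p = 6.74e-05). Once the length and GC trend was removed, it fell by 0.27 and 0.23 and was still called. Rev1 had 20.2, 17.7 and 19.4 CPM after cisplatin, 18.8, 20.8 and 19.1 CPM after oxaliplatin, and 20.7, 18.7 and 18.9 CPM after vehicle, and all groups overlapped. Polh averaged 12.8 ± 0.724 CPM after cisplatin, 13.5 ± 0.830 after oxaliplatin and 12.1 ± 0.913 after vehicle and passed neither test, nor did Rev1. Rev1 shares 26.6% of its exon bases with Eif5b on the other strand, which averaged 64.9 CPM after vehicle and fell by 0.49 after cisplatin and by 0.54 after oxaliplatin, so with the strand setting not given the Rev1 values are uncertain.

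The Fanconi genes measured encode FANCA and FANCC of the core complex, which marks FANCD2 and FANCI, the pair that binds crosslinked DNA. Fanci (chr7:79391929-79450264) had the largest fold change of all 27 but few reads. There were 36, 46 and 43 reads after cisplatin, 43, 51 and 49 reads after oxaliplatin, and 11, 13 and 19 reads after vehicle, and no libraries overlapped in CPM. It rose by 0.89 ± 0.24 after cisplatin (edgeR adjusted p = 0.012) and 0.99 ± 0.23 after oxaliplatin (edgeR adjusted p = 0.0054). Without vehicle replicate 1 the cisplatin change was 0.68 with no call (adjusted p = 0.056). Fanci shares 16.0% of its exon bases with Polg, a gene far more abundant (57.8 ± 1.201, 58.2 ± 0.896 and 60.0 ± 0.604 CPM after cisplatin, oxaliplatin and vehicle), and since the strand setting of the counting is not given, whether reads in the shared stretch were kept apart is unknown. The summed CPM of 12 marker genes of dividing cells was 59.5 to 68.7 after cisplatin, 43.6 to 50.3 after oxaliplatin and 38.8 to 46.5 after vehicle, with 8 of the 12 called higher after cisplatin, 4 after oxaliplatin and none lower. Over all genes tested, 15.8% were called higher after cisplatin and 17.5% after oxaliplatin. No marker gene of the 12 was at 0 in all libraries, and their part in the Fanci result was not tested.

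Fancd2 had 2.70, 3.01 and 2.79 CPM after cisplatin, 3.39, 2.91 and 2.82 CPM after oxaliplatin, and 2.55, 2.82 and 2.99 CPM after vehicle, with overlap throughout. Fancc (chr13:63285043-63497278) had 15.2, 17.4 and 17.1 CPM after oxaliplatin and 14.2, 13.7 and 14.0 CPM after vehicle, and rose there (0.24 ± 0.07, edgeR adjusted p = 0.022). The Fancc call was lost without vehicle replicate 3 (0.24, adjusted p = 0.053), oxaliplatin replicate 2 (0.20, adjusted p = 0.084) or oxaliplatin replicate 3 (0.22, adjusted p = 0.078). Its cisplatin libraries, at 15.9, 15.0 and 14.1 CPM, overlapped vehicle and did not pass (0.10 ± 0.08, edgeR adjusted p = 0.32). Fanca averaged 1.69 ± 0.297 CPM after cisplatin, 1.65 ± 0.239 after oxaliplatin and 1.91 ± 0.0342 after vehicle. Fancd2 and Fanca passed no test. Fanca shares 10.5% of its exon bases with Zfp276, and Fancc 16.4% with the antisense gene Gm16133, both on the other strand.

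Crosslink nucleases and homologous recombination close the list. Fan1 (chr7:64346758-64374095), a nuclease recruited by FANCD2, had 8.09, 9.11 and 8.38 CPM after cisplatin, 9.17, 8.24 and 9.22 CPM after oxaliplatin and 10.1, 11.8 and 10.4 CPM after vehicle, and every vehicle library was above every drug library. It fell by 0.32 ± 0.09 after cisplatin (edgeR adjusted p = 0.013) and by 0.26 ± 0.09 after oxaliplatin (edgeR adjusted p = 0.030), and with library totals alone was at 0.042 after oxaliplatin, with no call for either drug. The Fan1 cisplatin call was lost without cisplatin replicate 1 (-0.28, adjusted p = 0.051), and the oxaliplatin call without vehicle replicate 2, cisplatin replicate 3 or any oxaliplatin replicate (-0.29 to -0.18, adjusted p 0.051 to 0.12), with DESeq2 (-0.25, adjusted p = 0.054), with no low-count filter (-0.21, adjusted p = 0.11) and with the length and GC trend removed (-0.22, adjusted p = 0.066). Slx4, a scaffold that holds several nucleases, averaged 8.62 ± 0.537 CPM after cisplatin, 8.59 ± 0.154 after oxaliplatin and 9.81 ± 0.637 after vehicle. The Slx4 libraries did not overlap vehicle for either drug, but edgeR adjusted p was 0.079 and 0.066.

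Brca2 (chr5:150522630-150570329), which acts in homologous recombination, had 5.42, 5.11 and 5.42 CPM after cisplatin, 6.05, 5.73 and 6.09 CPM after oxaliplatin, and 8.85, 9.21 and 7.70 CPM after vehicle. Every drug library was below every vehicle library. Brca2 fell by 0.68 ± 0.09 after cisplatin (edgeR adjusted p = 0.00017) and by 0.52 ± 0.09 after oxaliplatin (edgeR adjusted p = 0.0008). With the length and GC trend removed it was at -0.26 (adjusted p = 0.046) and -0.088 (adjusted p = 0.49), and with library totals alone the oxaliplatin call was lost too. Brca1, which acts upstream in the same process, had 5.53, 6.24 and 6.17 CPM after cisplatin, 5.75, 5.57 and 5.70 CPM after oxaliplatin, and 6.15, 5.83 and 6.96 CPM after vehicle and passed neither test.

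**Figure D2:**
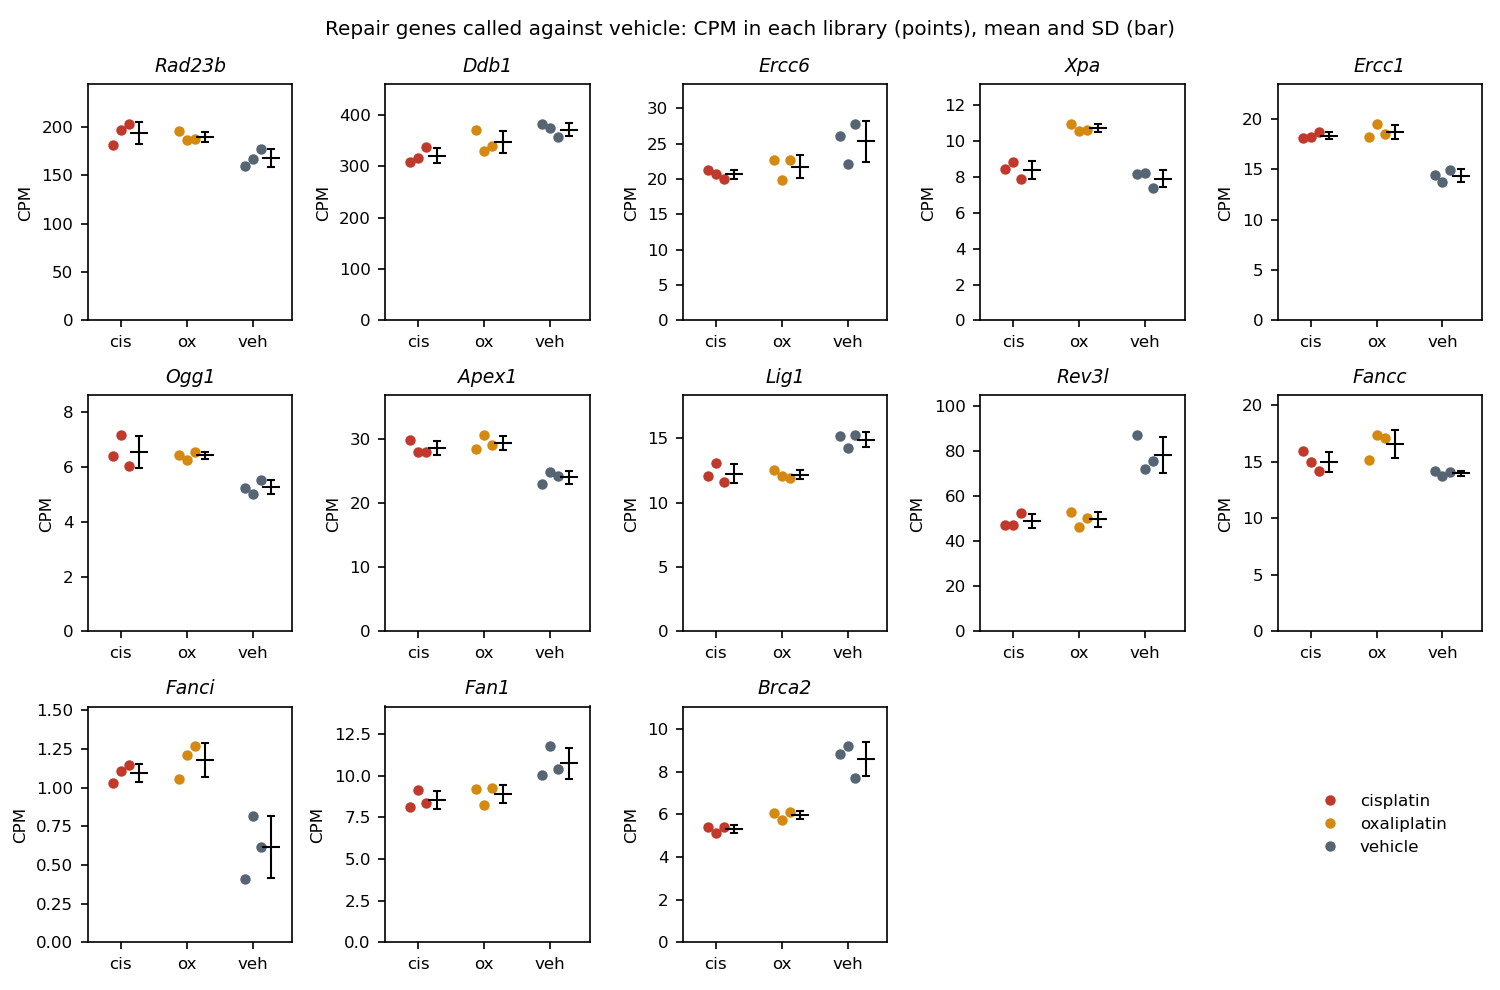
CPM (vertical axis, from 0) in each of the 3 cisplatin, 3 oxaliplatin and 3 vehicle libraries for the 13 genes called for at least 1 drug, with the mean and SD beside the points. For Ercc1, Apex1, Lig1, Rev3l, Rad23b, Ogg1, Fanci, Fan1 and Brca2 no drug library overlaps a vehicle library; with library totals alone Lig1 comes to 0.0043 and 0.0044 on the log2 scale, and Fan1 to 0.042 after oxaliplatin.

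Per kilobase of exon, the vehicle level ran from 0.107 CPM per kb for Fanci to 57.9 for Ddb1. Ddb1, Rad23b at 29.3, Ercc3 at 17.4 and Apex1 at 16.9 led the order, and the ranges of Ercc3 and Apex1 overlapped, whereas those of Ddb1 and Rad23b did not. The Fanconi and recombination genes Brca1 at 0.740, Brca2 at 0.629, Fancd2 at 0.351, Fanca at 0.218 and Fanci were the lowest 5, and no neighbouring pair among them overlapped. Fancc, the remaining Fanconi gene, was higher, at 1.67. These are levels, and the values above are differences of levels.

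Ratios of partner genes within a library do not depend on how libraries are scaled. They do keep any trend of fold change with exon length. Exon lengths were 3111 and 6730 bases for Ercc1 and Ercc4, 6168 and 13293 for Rev1 and Rev3l, and 8533 and 13643 for Brca1 and Brca2. They were 12851 and 7657 for Ercc6 and Ercc8, 7937 and 5774 for Fancd2 and Fanci, and 5494 and 5733 for Xpc and Rad23b. The part of the length trend in the ratios was not tested. The ratio of Ercc1 to Ercc4 per kilobase was 2.07, 2.07 and 1.996 after cisplatin, 1.92, 2.17 and 2.10 after oxaliplatin and 1.49, 1.45 and 1.44 after vehicle. Rev1 to Rev3l was 0.922, 0.810 and 0.790 after cisplatin, 0.763, 0.968 and 0.817 after oxaliplatin and 0.511, 0.561 and 0.537 after vehicle. In both pairs every drug library exceeded every vehicle library, but the Rev1 values are uncertain because of Eif5b, as given above. Fancd2 to Fanci had geometric means of 1.88 after cisplatin, 1.88 after oxaliplatin and 3.42 after vehicle. Brca1 to Brca2 was at 1.80, 1.52 and 1.18 in the same order of groups, Ercc6 to Ercc8 at 1.41, 1.42 and 1.85, and Xpc to Rad23b at 0.0915, 0.0948 and 0.106. In these 6 of 8 pairs neither drug overlapped vehicle. Of single genes, 48.0% did not overlap vehicle after cisplatin and 50.5% after oxaliplatin. The share among other gene pairs was not measured, so the count of pairs says nothing particular about repair. For these pairs the two-sided exact permutation test over libraries gave p = 0.1, the smallest that 3 against 3 allows (adjusted p = 0.18 over 24 tests), so none can pass. Ercc2 to Ercc3 and Xrcc1 to Lig3 overlapped for both drugs.

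**Figure D3:**
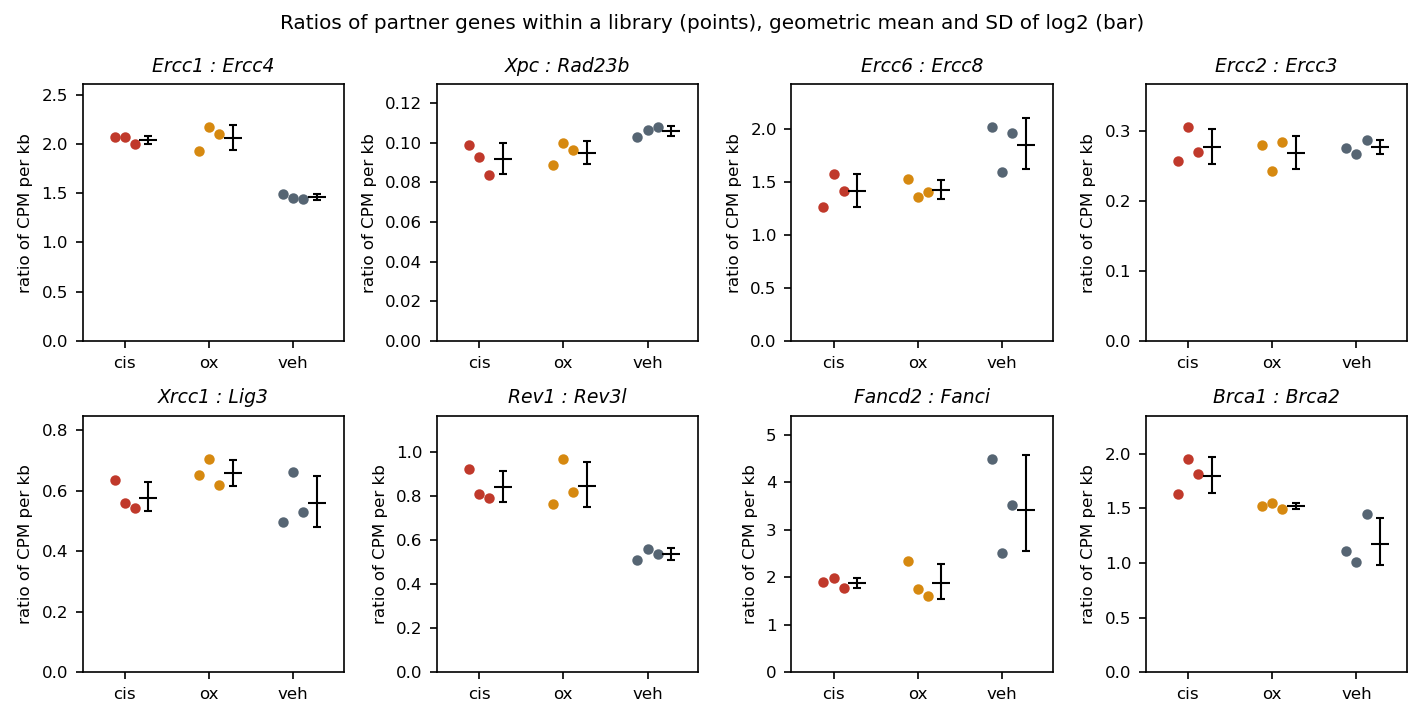
Ratio of the CPM per kb of the first gene to that of the second (vertical axis, from 0) in each library for 8 partner pairs, grouped as cisplatin, oxaliplatin and vehicle, with the geometric mean and the SD of the log2 ratio. Ercc1 to Ercc4 lies near 2.04 and 2.06 in the drug groups and 1.46 in vehicle.

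Between cisplatin and oxaliplatin no repair gene passed the test. In edgeR 0 were called, 1 (Xpa) had an unadjusted p under 0.05, and DESeq2 and limma-voom called 0; over all genes 0.0115% were called. Xpa was 0.35 ± 0.07 lower on the log2 scale after cisplatin than after oxaliplatin (95% interval -0.52 to -0.19, unadjusted p = 0.00051, edgeR adjusted p = 0.50), and its libraries, like those of Ercc3 and Brca2, did not overlap; 14.1% of all genes did not overlap. The half-width of the interval had a median of 0.16, and over all 27 genes the intervals ran from -0.53 to 0.41. The narrower cases include Ercc1, at -0.03 with an interval from -0.16 to 0.10, and Rev3l, at -0.02 from -0.19 to 0.15. A p that misses the threshold does not show that the drugs act alike. Cisplatin carries 2 ammine ligands and oxaliplatin a diaminocyclohexane ligand and an oxalate; the cumulative dose in µg was equal, so the molar dose was not.

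**Figure D4:**
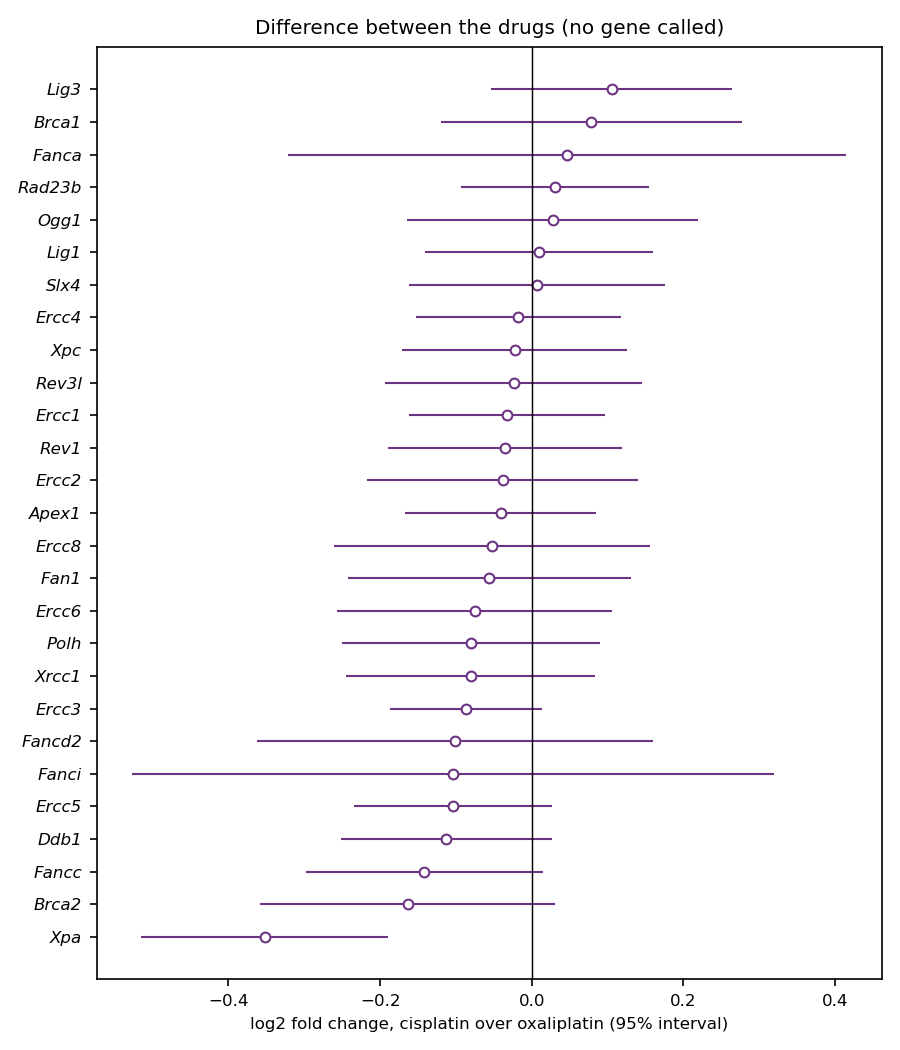
Log2 fold change of cisplatin over oxaliplatin with its 95% interval (horizontal axis) for the 27 repair genes in order of the fold change. The interval of Xpa alone excludes 0, and no gene was called.

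Fold change moved with exon length among the repair genes, as it did over all genes. Exons were measured as the union over GENCODE M21 transcripts. The 3 longest, Brca2 at 13643 bases, Rev3l at 13293 and Ercc6 at 12851, fell after both drugs. The genes called higher had a median of 3111 exon bases for each drug, and those called lower had 9630 for cisplatin and 12851 for oxaliplatin. Spearman's rank correlation of log2 fold change with exon length was -0.53 for cisplatin and -0.60 for oxaliplatin over the 27 genes, and -0.41 for each over 16380 genes, given as descriptions, since genes share libraries. Between the drugs it was 0.02 over the 27 genes. Over the 16380 genes, the rank correlation of log2 fold change with GC content was 0.215 for cisplatin, 0.266 for oxaliplatin and -0.176 between the drugs. With the trend with length and GC content removed, 10 repair genes were called after cisplatin (5 higher, 5 lower) and 10 after oxaliplatin (7 higher, 3 lower), of which 7 in each case were also called before. Ercc8 (0.33 and 0.44) was then called higher and Ercc3 (-0.23 and -0.15) lower after both drugs, Fancc (0.25) higher after cisplatin and Polh (0.25) higher after oxaliplatin. The calls for Ercc6, Ogg1 and Apex1 were lost for both drugs, that for Ddb1 after cisplatin, and those for Fan1 and Brca2 after oxaliplatin.

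**Figure D5:**
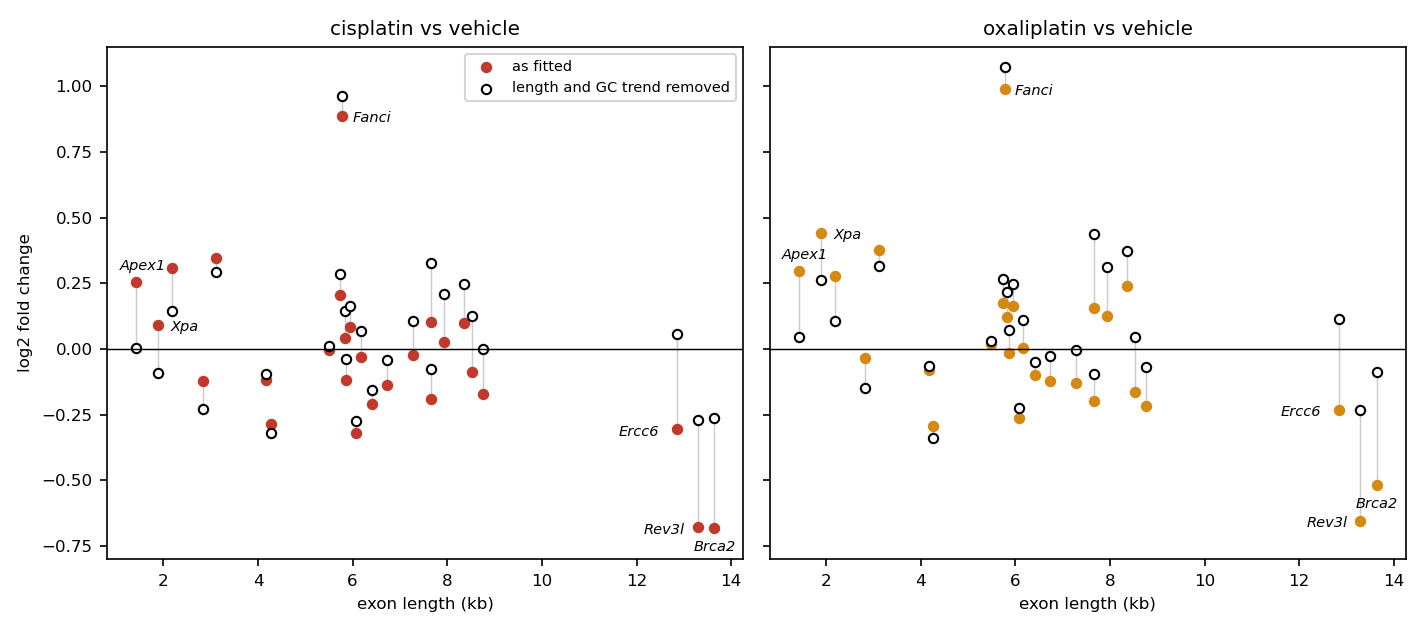
Log2 fold change over vehicle (vertical axis) against exon length in kb (horizontal axis) for the 27 repair genes, after cisplatin (left) and oxaliplatin (right), as fitted (filled) and with the length and GC trend removed (open). Rev3l and Brca2 move up toward 0, Ercc6 turns to 0.058 and 0.11, and Fanci is at 0.96 and 1.07.

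The other repair genes, 77 in 5 lists of which 76 were tested, moved in both directions. After cisplatin 5 of the 76 rose and 13 fell, where 15.8% of all genes tested were called higher and 22.9% lower. After oxaliplatin 8 rose and 14 fell, where 17.5% of all genes were called higher and 24.1% lower. The called share of the 76 was below that of all genes, 38.7% for cisplatin and 41.6% for oxaliplatin. The median log2 fold change was 0.02 for cisplatin and 0.03 for oxaliplatin. Up to 3 calls of smallest p per list and drug were followed in the alternatives. With the trend with exon length and GC content removed, 11 of these calls were lost and 15 kept. With library totals alone, 12 were lost, 5 changed sign and 10 were kept. Translesion genes other than the 3 above gave 0 higher and 4 lower of 10 after cisplatin, and 0 higher and 6 lower after oxaliplatin. Shprh, a ubiquitin ligase for PCNA, the clamp that holds polymerases on DNA, averaged 42.8 ± 2.86 CPM after cisplatin, 44.0 ± 2.56 after oxaliplatin and 61.2 ± 3.52 after vehicle. Hltf, a related ligase, fell by 0.31 after cisplatin and 0.30 after oxaliplatin, and Ube2b, the ubiquitin-conjugating enzyme that acts with RAD18, by 0.31 and 0.36; with library totals alone Hltf was at 0.0014 after oxaliplatin.

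In nucleotide excision, 2 of 18 further genes rose and 3 fell after cisplatin, and 4 rose and 3 fell after oxaliplatin. Cul4b, the ubiquitin ligase scaffold that binds DDB1, averaged 42.0 ± 2.88 CPM after cisplatin, 40.2 ± 4.34 after oxaliplatin and 70.5 ± 8.76 after vehicle, a fall of 0.75 and 0.81 on the log2 scale. Ccnh, the cyclin of the kinase part of TFIIH, fell by 0.19 after cisplatin and 0.26 after oxaliplatin, and was at 0.10 and 0.047 with library totals alone. Gtf2h1, a core subunit of TFIIH, rose by 0.15 after cisplatin and 0.20 after oxaliplatin. Uvssa, which acts with CSB and CSA, fell by 0.26 after cisplatin and by 0.41 after oxaliplatin. In base excision, 2 of 20 rose and 2 fell for each drug. Apex2, a relative of Apex1, averaged 6.87 ± 0.184 CPM after cisplatin, 6.05 ± 0.270 after oxaliplatin and 10.8 ± 1.93 after vehicle. Parg, which removes poly(ADP-ribose) chains, fell by 0.21 after cisplatin and 0.14 after oxaliplatin, and was at 0.078 and 0.17 with library totals alone. Of 16 further Fanconi and crosslink genes, 1 rose and 1 fell after cisplatin and 2 rose and 2 fell after oxaliplatin. Brip1, a helicase that binds BRCA1, averaged 1.10 ± 0.0731 CPM after cisplatin, 1.05 ± 0.137 after oxaliplatin and 0.686 ± 0.145 after vehicle. Fancm, a DNA translocase that recruits the core complex, fell by 0.34 after cisplatin and by 0.25 after oxaliplatin. Faap100 rose by 0.22 and Fancb, its partner in the core complex, fell by 0.40 after oxaliplatin, and Fancb was at -0.15 after cisplatin without passing. Of 12 further recombination genes tested, 3 fell after cisplatin and 1 after oxaliplatin. Bard1, the partner of BRCA1, fell by 0.52 after cisplatin (edgeR adjusted p = 0.0072) and by 0.39 after oxaliplatin (edgeR adjusted p = 0.025). Rad50, part of the complex that binds broken DNA ends, fell by 0.29 and Blm, a helicase, by 0.31 after cisplatin, and were at -0.18 and -0.19 after oxaliplatin without passing.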

How the data were processed

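The authors deposited raw read counts per gene symbol for each of 9 libraries (stranded total RNA, single-end), with no normalization; per the submitters' processing notes, the tools were STAR, SAMtools and HTSeq and the build mm10 (GRCm38). Tool versions, annotation and strand setting: not given in the sources used here. Symbols were matched to GENCODE M21 (35656 of 38926, 91.6%) for positions and exon lengths. The 5 rows of unassigned reads, 42.8 to 74.5% of recorded reads, were left out of totals and tests. All 9 libraries were fitted in edgeR 4.0.16 (R 4.3.3) with 1 coefficient per group, TMM scaling, filterByExpr and the quasi-likelihood F test, adjusted over all 17348 genes at 0.05. Each SE was obtained by dividing the absolute log2 fold change by the root of its F statistic. CPM per kb divides by union exon length. Partner ratios used two-sided exact permutation tests. Alternatives used limma 3.58.1, DESeq2 1.42.0 and mgcv 1.9.3 (length and GC trend), other filters and scalings, a replicate block and leaving out each library. A looser adjusted p threshold of 0.1 on the main fit was also counted among them. No pair of replicates agreed within sampling noise. The code was tested on simulated counts. All 27 genes are named, with every library's value for those called and their partners, and up to 3 called genes of smallest p per further list, except 1 base excision gene that is not reported here. Repair genes and lists were chosen with earlier results of these data known.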

Additional observations from a re-analysis of the deposited data

How the results depend on the processing

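Values are log2 fold changes, or differences of log2 ratios where a pair of genes is given. The 21 alternatives include the looser adjusted p threshold of 0.1, at which no call can be lost. Ercc1 for both drugs, Rev3l for both, Fanci and Xpa for oxaliplatin and Brca2 for cisplatin were called in all 21 alternatives, with fold changes of 0.29 to 0.63 and 0.32 to 0.68 for Ercc1, -0.72 to -0.27 and -0.69 to -0.23 for Rev3l, 0.79 to 1.34 for Fanci, 0.26 to 0.74 for Xpa and -0.76 to -0.26 for Brca2. Of 132 sign changes over results and alternatives, 13 concern values called in the main analysis, and none of the 132 was called with the new sign.

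With library totals alone, 9 repair genes were higher and 2 lower after cisplatin and 1 lower after oxaliplatin, and 68 genes were called between the drugs. These changed sign: for cisplatin over vehicle Xpc 0.29, Ddb1 0.084, Ercc2 0.17, Ercc3 0.17, Ercc4 0.15, Ercc5 0.17, Lig3 0.26, Lig1 0.0043, Rev1 0.26, Fanca 0.11, Slx4 0.095, Brca1 0.20, Ccnh 0.10 and Parg 0.078; for oxaliplatin over vehicle Ddb1 0.21, Ercc6 0.061, Ercc2 0.22, Ercc3 0.27, Ercc4 0.18, Ercc5 0.29, Lig3 0.17, Lig1 0.0044, Fanca 0.077, Slx4 0.10, Fan1 0.042, Brca1 0.13, Ccnh 0.047, Hltf 0.0014 and Parg 0.17; for cisplatin over oxaliplatin Lig1 -0.0001 and Slx4 -0.0053. With vehicle replicate 2 left out as well, a setting chosen after seeing the data, 8 repair genes were higher and 3 lower after cisplatin, 2 were lower after oxaliplatin and 0 genes were called between the drugs, and these changed sign: for cisplatin over vehicle Xpc 0.15, Ercc2 0.018, Ercc3 0.038, Ercc5 0.036, Lig3 0.087, Rev1 0.10 and Brca1 0.025; for oxaliplatin over vehicle Ddb1 0.075, Ercc2 0.067, Ercc3 0.14, Ercc4 0.025, Ercc5 0.15 and Parg 0.023; for cisplatin over oxaliplatin Slx4 -0.0047. With no low-count filter 3 repair genes were lower after oxaliplatin and 16 genes were called between the drugs, and these changed sign: for cisplatin over vehicle Xpc 0.038, Lig3 0.021 and Rev1 0.012; for oxaliplatin over vehicle Ercc3 0.017 and Ercc5 0.036; for cisplatin over oxaliplatin Slx4 -0.0014. With a filter of 1 CPM in 3 libraries 1 gene was called between the drugs, and these changed sign: for cisplatin over vehicle Xpc 0.022 and Lig3 0.0043; for oxaliplatin over vehicle Ercc5 0.013. DESeq2 gave 3 lower after oxaliplatin and 14 genes between the drugs, with Xpc at 0.008 for cisplatin over vehicle. Median-ratio size factors gave Xpc 0.0087 there. Without mitochondrial, small and structural RNAs these changed sign: for cisplatin over vehicle Xpc 0.015; for oxaliplatin over vehicle Ercc5 0.006. With the trend with exon length and GC content removed, 3 repair genes were lower after oxaliplatin and 1 gene was called between the drugs, and these changed sign: for cisplatin over vehicle Xpc 0.013, Ercc6 0.058, Xpa -0.09, Lig3 0.11, Rev1 0.067 and Brca1 0.12; for oxaliplatin over vehicle Ercc6 0.11, Ercc5 0.072 and Brca1 0.047. Limma-voom called 1 gene between the drugs, and a fit of the 2 groups alone 0. A prior count of 5 changed the sign of these ratio differences: for cisplatin over vehicle Ercc2 to Ercc3 -0.0028; for cisplatin over oxaliplatin Fancd2 to Fanci -0.0091. The causes were not tested.

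The labels give no pairing, and the replicate numbers showed no sign of it. Correlations of deviations for equal numbers ran from -0.14 to 0.11, and those for unequal numbers from -0.23 to 0.21. A replicate block called 6643 genes for cisplatin, 7140 for oxaliplatin and 0 between the drugs, and among the repair genes 5 higher and 6 lower for cisplatin and 6 higher and 5 lower for oxaliplatin; of the calls on repair genes the block ended that of Ogg1 for oxaliplatin (0.28, adjusted p = 0.054) and changed no other.

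Leaving out 1 library at a time gave 3 to 5 repair genes higher and 4 to 6 lower after cisplatin. After oxaliplatin it gave 4 to 7 higher and 3 to 4 lower, and 0 to 2 genes were called between the drugs. Over all genes, 4881 to 7309 were called for cisplatin and 5342 to 7697 for oxaliplatin. Signs changed in these ranges: for cisplatin over vehicle Xpc -0.038 to 0.056, Ercc8 -0.0026 to 0.18, Xrcc1 -0.0018 to 0.12, Lig3 -0.055 to 0.043, Rev1 -0.071 to 0.042 and Fancd2 -0.022 to 0.090; for oxaliplatin over vehicle Xpc -0.013 to 0.079, Ercc3 -0.049 to 0.005, Ercc5 -0.033 to 0.033 and Rev1 -0.041 to 0.079; for cisplatin over oxaliplatin Xpc -0.054 to 0.0051, Rad23b -0.0058 to 0.074, Ercc8 -0.16 to 0.025, Ercc2 -0.11 to 0.028, Ercc4 -0.051 to 0.0069, Ogg1 -0.047 to 0.083, Lig1 -0.041 to 0.049, Rev1 -0.077 to 0.016, Rev3l -0.081 to 0.018, Fanca -0.037 to 0.18 and Slx4 -0.040 to 0.049. For the ratios they were Ercc2 to Ercc3 -0.071 to 0.053 and Xrcc1 to Lig3 -0.034 to 0.17 for cisplatin over vehicle, Ercc2 to Ercc3 -0.088 to 0.027 for oxaliplatin over vehicle, and Ercc1 to Ercc4 -0.063 to 0.023, Xpc to Rad23b -0.11 to 0.013, Ercc6 to Ercc8 -0.10 to 0.065, Ercc2 to Ercc3 -0.027 to 0.10, Rev1 to Rev3l -0.085 to 0.087 and Fancd2 to Fanci -0.10 to 0.16 for cisplatin over oxaliplatin. Fanci, Fanca and Fancd2 had the largest standard errors of the 27 for each drug; how much of that is depth was not tested.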
